A study of Mus musculus with 474 samples.

Results

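Levels of 10 genes of fatty acid synthesis were followed in skeletal muscle RNA of Diversity Outbred (DO) mice, an outbred stock derived from inbred founder strains, so that animals differ genetically from one another. The 10 genes were Scd1, Scd2, Fasn, Acaca, Acacb, Srebf1, Elovl6, Acly, Me1 and Thrsp, chosen by gene symbol, and all 10 were present among the 20612 genes of the tables. Polyadenylated RNA of the skeletal muscle, named gastrocnemius in the methods, was sequenced with 1 library per animal. All animals were harvested as adults after the same diet, which was high in fat (45% by the label) and sugar, so no group on another diet was compared. The labels gave the sex and a number read here as the outbred generation. The methods name generations 18, 19 and 21 but not 17 or 23, so this reading is not settled, and generation stands here for that number. There were 48 females and 46 males from generation 17, 45 and 48 from generation 18, 49 and 50 from 19, 46 and 47 from 21, and 47 and 48 from 23. The questions were how the level of each gene varied by sex and generation, how closely the genes moved together, and how much of their spread followed Adipoq, the adipocyte hormone adiponectin, which marks fat cells left in or between the muscle fibres.

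Fatty acid synthesis from sugar uses cytosolic acetyl-CoA, which ATP citrate lyase (Acly) makes from citrate. Acetyl-CoA carboxylases make malonyl-CoA from it: Acaca encodes the cytosolic form that feeds synthesis, and Acacb the form at mitochondria, whose product holds back fatty acid oxidation in muscle. Fatty acid synthase (Fasn) builds palmitate with NADPH that malic enzyme (Me1) helps to supply, Elovl6 lengthens it, and the stearoyl-CoA desaturases Scd1 and Scd2 introduce a double bond. Srebf1 encodes the transcription factor SREBP-1, which raises transcription of these genes in liver and fat, and Thrsp (Spot 14) encodes a small protein abundant in fat-making tissues. White and brown fat hold much more of this machinery than muscle fibres do, and in bulk tissue more fat cells and more RNA per fat cell cannot be told apart.

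The sequence around a start site is shown for 3 genes that moved closely together in these animals (Fasn, Acly and Thrsp) and for 1 that did not move with them (Acacb). Each is a RefSeq window on GRCm38.p6 from 250 bases before to 50 bases after a RefSeq start site, printed 5′ to 3′ on the strand of the gene. Capitals mark matches on either strand to CCAAT, to the GC box GGGCGG or to TATAAA, and overlapping matches run together. The Fasn window lies at chr11:120824498-120824797, minus strand, the Acly window at chr11:100527951-100528250, minus strand, the Thrsp window at chr7:97417501-97417800, minus strand, and the Acacb window at chr5:114165268-114165567, plus strand. The Acacb and Thrsp windows are those of internal start sites, inside the gene and downstream of its first annotated base. The same holds for windows of Acaca, Srebf1, Elovl6 and Me1 counted below.
Fasn: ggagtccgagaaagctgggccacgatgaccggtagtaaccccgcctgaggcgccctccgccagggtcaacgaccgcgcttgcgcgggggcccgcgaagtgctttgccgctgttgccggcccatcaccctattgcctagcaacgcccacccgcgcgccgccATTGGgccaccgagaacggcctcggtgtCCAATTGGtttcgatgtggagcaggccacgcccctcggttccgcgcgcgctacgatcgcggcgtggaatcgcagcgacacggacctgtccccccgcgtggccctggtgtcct
Acly: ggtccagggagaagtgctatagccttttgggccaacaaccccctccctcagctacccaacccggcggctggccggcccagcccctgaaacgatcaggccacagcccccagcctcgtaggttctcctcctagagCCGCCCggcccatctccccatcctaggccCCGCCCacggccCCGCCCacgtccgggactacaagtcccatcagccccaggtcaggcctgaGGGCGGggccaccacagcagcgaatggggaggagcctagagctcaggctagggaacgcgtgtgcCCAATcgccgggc
Thrsp: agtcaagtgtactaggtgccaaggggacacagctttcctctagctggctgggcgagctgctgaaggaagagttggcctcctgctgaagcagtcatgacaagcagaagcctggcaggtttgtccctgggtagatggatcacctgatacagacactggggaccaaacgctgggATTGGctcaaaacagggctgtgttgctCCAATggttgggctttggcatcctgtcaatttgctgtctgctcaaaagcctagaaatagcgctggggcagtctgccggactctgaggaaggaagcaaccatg
Acacb: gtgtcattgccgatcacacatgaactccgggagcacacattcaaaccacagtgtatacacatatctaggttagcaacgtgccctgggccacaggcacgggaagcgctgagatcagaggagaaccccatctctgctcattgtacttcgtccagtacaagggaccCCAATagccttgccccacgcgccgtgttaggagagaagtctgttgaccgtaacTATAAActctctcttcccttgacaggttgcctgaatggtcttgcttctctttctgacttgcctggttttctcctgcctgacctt

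Windows were found for 8 of the 10 genes, 11 windows in all, and none was used for Scd1 and Scd2. CCAAT was present in 7 of these 11 windows, from 6 of the 8 genes, against 37.4% of all 32851 RefSeq promoter windows of this length. Fasn had 3 matches, Thrsp 2, and Acly and Acacb 1 each. The GC box was present in 4 windows from 3 genes (Srebf1, Acly and Me1), against 35.7% of all windows, and Acly had 4 matches. TATAAA was present in Acacb alone among the 8, against 13.6% of windows. The sterol response element TCACNCCAC, bound by SREBP-1, and the E-box CACGTG matched none of the 11 windows. They were present in 1.24% and 7.15% of all windows. These counts describe the letters of these windows only.

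On GRCm38 the genes were spread over 6 chromosomes. Scd1 (chr19:44394455-44407879) and Scd2 (chr19:44293674-44306864) lie in 1 cluster with Scd3 and Scd4. Fasn (chr11:120805846-120824547), Acaca (chr11:84129672-84401651), Srebf1 (chr11:60199089-60222581) and Acly (chr11:100476353-100528000) share chromosome 11 but lie far apart. The others were Acacb (chr5:114146535-114250761), Elovl6 (chr3:129532355-129638495), Me1 (chr9:86581371-86695953) and Thrsp (chr7:97412938-97417730). Exons of Srebf1 overlap those of Rai1 and exons of Me1 overlap those of A330041J22Rik on the opposite strand, as do exons of Elovl6 those of the antisense gene Gm35986, and whether counting used the strand is not given in the sources used here, so reads of these overlaps could not be told apart.

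Total counts per library ranged from 35.9 to 165.7 M, with a median of 79.3 M, and the lowest count of any of the 10 genes in any library was 26, for Elovl6. The muscle fibre gene Ckm ran from 6809 to 31917 CPM, the count scaled to library size, and the markers of muscle were high in every library. In 5 libraries Xist, expressed from the inactive X chromosome, and Ddx3y, of the Y chromosome, did not both meet the limits for the labelled sex. The limits were at least 10 CPM of Xist and at most 0.1 CPM of Ddx3y in females. In males they were under 10 CPM of Xist and at least 10 CPM of Ddx3y. Of 3 flagged libraries labelled female, DO153 and DO347 had little Xist and no Ddx3y. DO048 had 122.3 CPM of Xist, and its Ddx3y of 0.133 CPM was only just over the limit. Of 2 labelled male, DO193 had 93.7 CPM of Ddx3y and 13.4 CPM of Xist, and DO308 had neither. Without these 5 libraries the same number of the 10 genes was called in the comparisons of sex, generation and Adipoq below. The library numbers fell into 5 blocks of 91 to 96 libraries, which the labels do not describe as batches.

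The 10 genes spanned a wide range of levels, and they differed even more in how far animals lay apart (the plot of CPM by sex and generation). Per kilobase of exon, the median level was highest for Scd1 (105.7 CPM per kb), followed by Me1 (66.1) and Acacb (45.6). Srebf1 (6.51), Scd2 (5.78), Fasn (4.50), Acly (3.59), Thrsp (2.60) and Acaca (2.25) followed, and Elovl6 was lowest at 0.280 CPM per kb. Acacb lay above Srebf1 in 100% of libraries and Acaca above Elovl6 in 99.2%. The order of the neighbours between them was not fixed, since Srebf1 exceeded Scd2 in only 59.3% of libraries, Scd2 exceeded Fasn in 68.6%, Fasn exceeded Acly in 66.03% and Thrsp exceeded Acaca in 65.6%. Scd1 exceeded Me1 in 73.6% of libraries, Me1 exceeded Acacb in 93.2%, and Acly exceeded Thrsp in 82.9%.

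**Figure D1:**
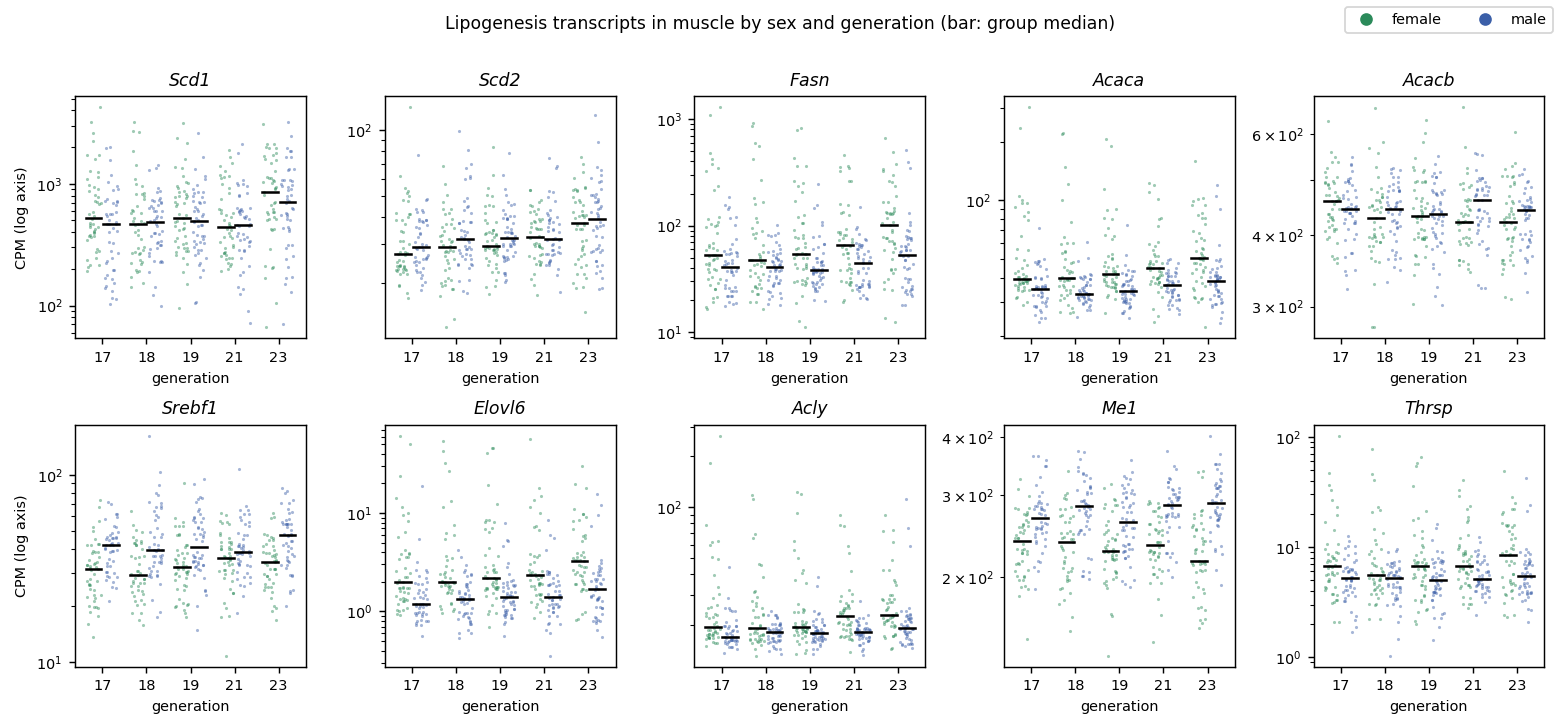
CPM of the 10 genes on a log axis, 1 point per animal, by generation (x axis) and sex (female green, male blue), with a bar at each group median. Fasn, Elovl6, Acly, Acaca and Thrsp have a long upper tail whose highest points are female, Me1 and Srebf1 lie higher in males, and Acacb is nearly flat.

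Elovl6 and Fasn had the widest ranges. Elovl6 ran from 0.356 to 61.1 CPM, a ratio of 171.6 between the highest and lowest library, which was 113.98 without the lowest library (DO379). Fasn spanned 11.2 to 1286 CPM (ratio 115.2), Thrsp 1.03 to 102.3 CPM (ratio 98.97) and Scd1 66.5 to 4232 CPM (ratio 63.7). The mitochondrial carboxylase Acacb, in contrast, spanned only 276.3 to 668.9 CPM (ratio 2.42), and Me1 135.7 to 402.3 CPM (ratio 2.96). Scd2 (ratio 10.1), Acaca (13.5), Srebf1 (14.9) and Acly (20.2) lay between these extremes. Without its highest library, the male DO179 at 161.8 CPM, Srebf1 had a ratio of 9.91, and leaving out the highest or the lowest library moved no ratio of the other 8 genes by more than 1.5 times. A single animal, the female DO041 of generation 17, was highest for 6 genes, namely Scd1, Scd2, Fasn, Acaca, Acly and Thrsp. It also had the highest Adipoq of all animals (94.6 CPM) and 49.7 CPM of Ucp1, the uncoupling protein of brown fat. The animal highest for Elovl6, the female DO025 of the same generation, had 38.1 CPM of Adipoq and 124.3 CPM of Ucp1, whereas the second highest for Elovl6, the female DO326 of generation 21 (57.1 against 61.1 CPM), had 30.8 CPM of Adipoq and only 0.118 CPM of Ucp1. The highest libraries of Srebf1, Acacb and Me1 were 3 other animals, whose Ucp1 was at most 0.142 CPM.

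Of the 10 genes 6 were lower in males and 2 were higher, by edgeR's quasi-likelihood test with generation as covariate and adjusted p-values over all 18823 genes. Among all genes tested, 30.6% were lower and 24.4% higher in males, so a call in either direction was common. Of all calls 44.3% were higher in males, and 30.8% when libraries were scaled by total count alone, with the same 8 genes called in the same directions. The 6 lower genes were Elovl6, Fasn, Thrsp, Acly, Acaca and Scd1, and the 2 higher genes were Srebf1 and Me1. Scd2 (log2 0.09, SE 0.05, adjusted p = 0.0888) and Acacb (log2 0.0018, SE 0.018, adjusted p = 0.941) did not pass. The median log2 difference of the 10 genes, male minus female, was -0.45, against -0.014 over all genes.

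Elovl6 ran from 0.701 over a median of 2.31 to 61.1 CPM in females, and from 0.356 over 1.37 to 18.8 CPM in males. The groups overlapped over most of their range, and the highest values were those of females. The log2 difference was -1.58 (SE 0.13, adjusted p = 4.62e-30). Fasn ran from 11.2 over 61.96 to 1286 CPM in females and from 17.5 over 41.9 to 511.6 CPM in males. The lowest as well as the highest Fasn level was that of a female, and the sexes overlapped. Its log2 difference was -1.25 (SE 0.12, adjusted p = 5.51e-23), and its mean was 127.8 ± 180 CPM (SD) in females and 54.4 ± 52.3 CPM in males. Thrsp ran from 2.01 over 6.65 to 102.3 CPM in females and from 1.03 over 5.16 to 42.7 CPM in males, with a log2 difference of -0.88 (SE 0.09, adjusted p = 3.79e-19). Acly ran from 13.2 over 20.8 to 265.4 CPM in females and from 13.3 over 18.1 to 111.7 CPM in males (log2 -0.60, SE 0.06, adjusted p = 1.30e-19). Acaca ran from 22.3 over 43.2 to 300.8 CPM in females and from 23.3 over 35.02 to 120 CPM in males (log2 -0.58, SE 0.05, adjusted p = 2.85e-25). In these 3 genes, too, the sexes overlapped and the highest library was female. Scd1, the most abundant of the set, had medians of 537.9 CPM in females and 504.2 CPM in males, with ranges of 66.5 to 4232 and 69.97 to 3233 CPM that overlapped almost wholly. Its log2 difference of -0.32 (SE 0.10, adjusted p = 0.00224) was the smallest of the 6.

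The transcription factor and malic enzyme went the other way. Srebf1 ran from 10.9 over a median of 32.8 to 90.4 CPM in females and from 14.9 over 41.3 to 161.8 CPM in males. The lowest, the median and the highest male value each lay above the female one although the sexes overlapped, and the log2 difference was 0.40 (SE 0.05, adjusted p = 5.22e-15). Me1 ran from 135.7 over 229.4 to 338.6 CPM in females and from 188.7 over 279.3 to 402.3 CPM in males, and it was higher by 0.25 on the log2 scale (SE 0.02, adjusted p = 1.72e-26). Scd2 ran from 12.6 over 30.8 to 126.7 CPM in females and from 17.9 over 32.4 to 117.3 CPM in males. The mitochondrial carboxylase Acacb ran from 276.3 over 430.9 to 668.9 CPM in females and from 301.8 over 442.3 to 555.6 CPM in males, so in both genes the range of males lay inside that of females.

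The fat cell markers differed between the sexes in the same libraries. Adipoq had a median of 18.4 CPM in females and 12.99 CPM in males (log2 -0.54, SE 0.09, adjusted p = 6.89e-09). Of 7 white fat markers 6 were lower in males and 1, Lep, was higher. Their summed level ran from 13.1 to 642.2 CPM in females and from 7.77 to 265.3 CPM in males. Of 5 brown fat markers 4 were lower in males, by 3.79 for Ucp1 and 1.20 for Cidea on the log2 scale, and 1, Zic1, was higher. Their summed level ran from 1.41 to 253.1 CPM in females and from 1.67 to 99.6 CPM in males, with medians of 3.41 and 3.55 CPM. Ucp1 was at 0 in 29.1% of libraries, and no other marker of these lists was at 0 in any. Of 6 Schwann cell markers 1 was lower in males, the 6 macrophage markers had adjusted p from 0.118 to 0.406, of 5 endothelial markers 4 were higher and 1 lower, and of 6 muscle fibre markers 2 were higher and 3 lower.

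Adding the log2 level of Adipoq to the fit left 9 of the 10 genes called and changed the direction of 1 of them (the plot of sex differences). With it, 24.5% of all genes were called higher and 26.7% lower in males. Elovl6 (log2 -0.82), Fasn (-0.51), Thrsp (-0.38), Acaca (-0.35) and Acly (-0.32) kept their direction at a smaller size. Scd1 turned from lower to higher in males, from -0.32 to 0.24 (SE 0.05, adjusted p = 7.64e-07), so at a given level of Adipoq the males had more Scd1. Scd2 passed the test as higher in males (0.22, SE 0.04, adjusted p = 2.78e-06). Srebf1 (0.42) and Me1 (0.25) were close to their values without Adipoq. With white fat, brown fat and Schwann cell scores in the fit in place of Adipoq, Elovl6 was at -0.73, Fasn at -0.35 and Scd1 at 0.40, all 3 called.

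**Figure D2:**
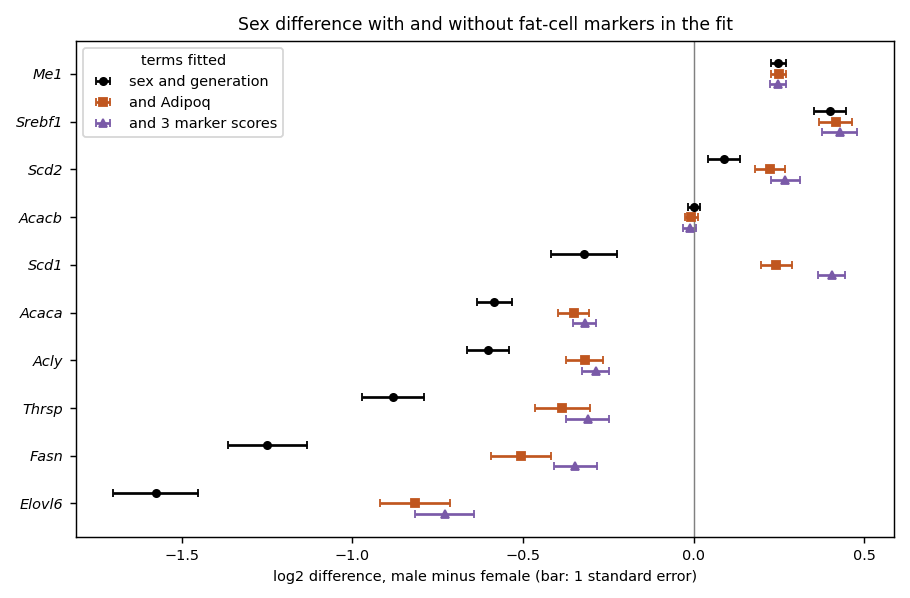
Log2 difference between the sexes (x axis, male minus female) for each of the 10 genes, with a bar of 1 standard error, from fits with sex and generation (circles), with Adipoq added (squares) or with 3 marker scores added (triangles). The 5 lowest genes move towards 0 but stay below it, Scd1 crosses from -0.32 to 0.24 and 0.40, and Me1, Srebf1 and Acacb hardly move.

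The difference was also read within each generation and each block of libraries. Elovl6, Fasn, Thrsp, Acaca and Me1 were called in 5 of 5 generations and in 5 of 5 blocks, each time in the same direction. Srebf1 and Acly had the same direction in all 5 of each and were called in 4. Scd1 was lower in males in 5 generations and 5 blocks but was called in only 1 of the generations and 2 of the blocks. Its values ran from -0.62 to -0.15 over the generations. Whether the sex difference itself varied between generations was tested as an interaction, and 0 of the 10 genes passed by edgeR, against 0.531% of all genes. By limma on the transformed values 0 genes of all passed, with 870 at an unadjusted p under 0.05. The lowest adjusted p of the 10 was 0.956, for Elovl6 (unadjusted p = 0.101), so 0 of the 10 genes had an unadjusted p under 0.05.

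Of the 10 genes 2, Scd1 and Scd2, differed between generations with sex as covariate, against 7.56% of all genes. The study also used the DO wave as a covariate. The labels do not give it, so generation and wave could not be told apart here. The median level of Scd1 in generation 23 was 851 CPM in females and 710 CPM in males. In the other 4 generations it lay between 438.2 and 527.3 CPM in females and between 455.3 and 490.6 CPM in males. Generation 23 was thus the high one in both sexes, although the ranges of the generations overlapped. The range of fitted levels was 0.66 on the log2 scale (adjusted p = 0.00203). Scd2, too, was highest in generation 23, with medians of 37.5 CPM in females and 39.01 CPM in males of generation 23 against 27.2 to 32.6 and 29.2 to 32.004 CPM in the others, and a range of 0.30 (adjusted p = 0.00887). Fasn had a range of 0.53 that did not pass (adjusted p = 0.185). Adipoq itself was highest in generation 23, by 0.43 over generation 17. Of 7 white fat markers 3 were called by generation (Adipoq, Plin1 and Lep), as were 3 of 6 macrophage markers, with ranges of 0.27 for Adgre1, 0.21 for Cd163 and 0.14 for Csf1r. Adgre1 was highest in generation 23, by 0.21 over generation 17, whereas Cd163 was highest in generation 17. The part of the macrophage markers in the differences of Scd1 and Scd2 was not tested. With Adipoq in the fit, the range fell to 0.25 for Scd1 (adjusted p = 0.0493) and to 0.22 for Scd2 (adjusted p = 0.134), and with 3 marker scores neither was called.

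Of the 10 genes 7 rose with Adipoq within sex and generation, 0 fell, and Acacb, Me1 and Srebf1 did not pass (the plot against Adipoq). Among all genes 19.5% rose and 16.7% fell. Of all calls 53.9% were rises, and 96.1% when libraries were scaled by total count alone, with the same 7 genes called. The slope is given as the log2 change of a gene for each doubling of Adipoq, so that a slope of 1 means a proportional rise. Scd1 had a slope of 0.97 (SE 0.02, adjusted p = 2.44e-160), close to proportional, and so had the fat cell genes Plin1 (0.97) and Cidec (0.96). Fasn (0.87, SE 0.04) and Elovl6 (0.83, SE 0.05) came next, followed by Thrsp (0.56), Acly (0.36), Acaca (0.31) and Scd2 (0.21, SE 0.02, adjusted p = 1.54e-19). Srebf1 had a slope of 0.03 (SE 0.02, adjusted p = 0.417), Me1 of 0.0009 (SE 0.011, adjusted p = 0.963) and Acacb of -0.016 (SE 0.009, adjusted p = 0.175). In females alone Srebf1 was called (0.10, SE 0.03, adjusted p = 0.00691), and in males it was not (-0.05, adjusted p = 0.355). It was also called on a white fat score without Adipoq (0.07, SE 0.03, adjusted p = 0.0464). Of the carboxylases only the cytosolic form, Acaca, was thus called. The median slope of the 10 genes was 0.34, against -0.0032 over all genes (0.02 when scaled by total count alone). All 7 slopes were positive in each of the 5 blocks, and 6 of them were called in every block, with Scd2 called in 4.

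**Figure D3:**
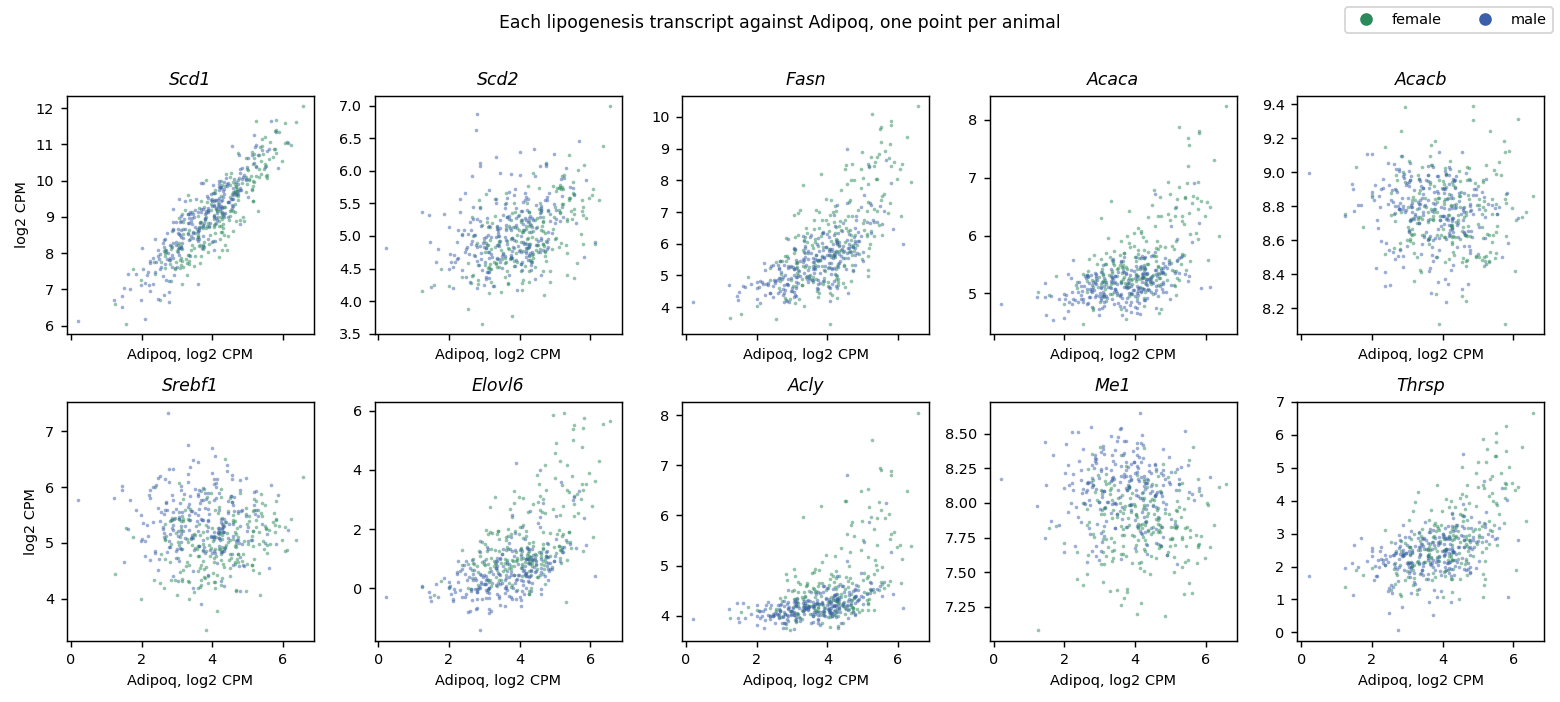
Log2 CPM of each of the 10 genes (y axis) against log2 CPM of Adipoq (x axis), 1 point per animal, female in green and male in blue. Scd1 follows Adipoq along a narrow straight band, Fasn, Elovl6, Acly, Acaca and Thrsp spread upwards at high Adipoq, and Acacb, Me1 and Srebf1 form clouds with no called slope over both sexes together.

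Other cell types also moved with Adipoq. Of the 6 other white fat markers 6 rose, of 5 brown fat markers 4 rose and 1 fell, of 6 Schwann cell markers 4 rose, of 6 macrophage markers 6 rose, of 5 endothelial markers 1 rose, and of 6 muscle fibre markers 5 fell, by at most 0.04, which is of the order of the shift that the other scaling makes. Ucp1 had the steepest slope of these, 2.55, and Cidea 0.97. With brown fat and Schwann cell scores also in the fit, the same 7 genes were called, but their slopes were smaller. Scd1 kept 0.87, Fasn 0.44 and Elovl6 0.38, whereas Thrsp was at 0.17, Scd2 at 0.12, Acaca at 0.09 and Acly at 0.08. The part of each cell type in these slopes was not tested beyond these fits.

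The slope on Adipoq was steeper in females for 7 genes by the sex-by-Adipoq interaction, against 4.56% of all genes called with a lower slope in males and 0.377% with a higher one. For Fasn the slope was 1.08 (SE 0.07) in females and 0.65 (SE 0.04) in males, and for Elovl6 it was 1.06 (SE 0.07) and 0.54 (SE 0.05). The difference in slope, male minus female, was -0.42 for Fasn (adjusted p = 7.30e-06) and -0.50 for Elovl6 (adjusted p = 7.34e-06). Thrsp (-0.48), Acly (-0.31), Acaca (-0.28), Scd2 (-0.15) and Srebf1 (-0.15) were called as well. Scd1 had a slope of 0.99 in females and 0.95 in males, a difference of -0.04 (SE 0.04, adjusted p = 0.767). Of the 7 differences 0 were called once brown fat and Schwann cell scores were added (adjusted p from 0.220 to 0.841) or once the square of Adipoq was added (adjusted p from 0.0502 to 0.397), both chosen after seeing the data, although 6 and 7 of them had an unadjusted p under 0.05. All 7 were still below 0. With the 2 scores the differences were -0.19 for Elovl6, -0.17 for Thrsp, -0.13 for Scd2, -0.12 for Srebf1, -0.10 for Acaca, and -0.08 for Acly and Fasn. With the square they were -0.32 for Thrsp, -0.30 for Elovl6, -0.25 for Fasn, -0.16 for Acly and Acaca, -0.14 for Srebf1 and -0.10 for Scd2. Within blocks, 6 of the 7 differences were called in block 1 and Acaca also in block 5, and none in the others. Of the brown fat markers 3, Cidea (-0.72), Kcnk3 (-0.56) and Otop1 (-0.50), had a lower slope in males too. The 6 white fat markers did not pass, with differences from -0.18 to 0.23 and adjusted p from 0.205 to 0.940.

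The share of the spread that followed Adipoq separated the genes further (the plot of variance shares). Within sex and generation, Adipoq went with 79.8% of the variance of Scd1 on the deposited log-like scale, 45.5% of Fasn, 29.2% of Elovl6, 27.5% of Acaca, 26.2% of Thrsp, 25.6% of Acly and 17.7% of Scd2. It went with 0.610% of Acacb, 0.436% of Srebf1 and 0.0150% of Me1. Scd1 ranked as number 3 of 18822 genes by its correlation with Adipoq (r = 0.894), and 69 genes shared 50% or more of their variance with it. With the 3 scores for white fat, brown fat and Schwann cells, the share rose to 84.7% for Scd1, 68.7% for Fasn and 53.8% to 55.7% for Elovl6, Acaca, Acly and Thrsp. Scd2 reached 30.5%, and Srebf1, Acacb and Me1 stayed at or below 2.59%. Sex took 22.4% of the whole variance of Me1, 16.5% of Acaca, 14.8% of Elovl6 and 12.7% of Srebf1. Library blocks, added last, took 5.88% of Srebf1 and at most 1.61% of any other gene.

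**Figure D4:**
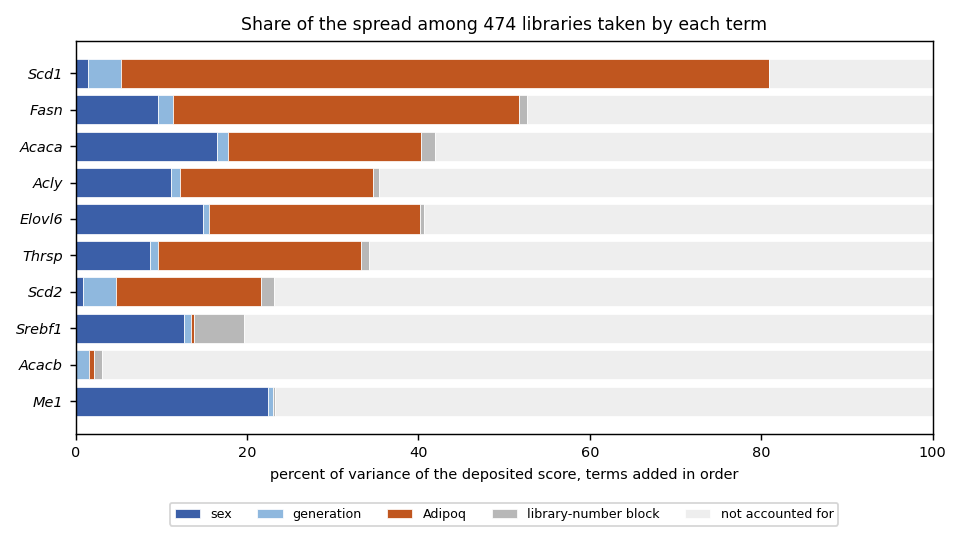
Percent of the variance of each gene over all libraries (x axis) taken by sex, generation, Adipoq and library block, added in that order, on the deposited transformed scale. Adipoq takes 75.6% of Scd1, 40.4% of Fasn and under 1% of Srebf1, Acacb and Me1, for which most of the bar is unaccounted for.

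Correlations of the 10 genes with the brown fat marker Ucp1 were read gene by gene. The share of all genes correlated with Ucp1 was not computed, so these calls have no background to be set against. Within groups, Pearson's r with Ucp1 was 0.716 for Acaca, 0.710 for Acly and Thrsp, 0.709 for Fasn and 0.683 for Elovl6, and 0.508 for Scd1. Ucp1 was at 0 in many libraries and high in a few, and the rank correlations were lower, with Spearman's rho of 0.477 for Acaca, 0.511 for Acly, 0.471 for Thrsp, 0.484 for Fasn, 0.516 for Elovl6 and 0.404 for Scd1. All of these had an adjusted permutation p of 2.14e-05 for r and 2.1e-05 for rho, the smallest that 100000 permutations allow over the 45 pairs and 60 relations with markers. Without the 2 libraries farthest from the median of the gene itself, r was 0.700 for Acaca and 0.693 for Fasn. These libraries were not picked by Ucp1, so the values do not show how far r rests on the few libraries high in it. Scd2 (r = 0.275, rho = 0.166, 0.260 without 2 libraries, adjusted permutation p = 2.14e-05 for r and 0.000317 for rho) and Srebf1 (r = 0.171, rho = 0.144, 0.178 without 2 libraries, adjusted permutation p = 0.000292 and 0.00124) had weaker correlations. Acacb (r = 0.05, rho = 0.02, adjusted permutation p = 0.405 and 0.684) and Me1 (r = -0.0047, rho = -0.042, adjusted permutation p = 0.931 and 0.424) did not pass. With Adipoq taken out, r with Ucp1 was 0.578 to 0.626 for Acaca, Acly, Thrsp, Fasn and Elovl6, 0.229 for Scd1 (rho = 0.213) and 0.160 for Srebf1 (rho = 0.174), all called by both measures, while Scd2 was at 0.10 (adjusted permutation p = 0.0472) and lost its call by rank (rho = 0.07, adjusted permutation p = 0.211). With the 3 marker scores, 1 of which holds Ucp1, taken out, r was 0.168 to 0.259 for the same 5 genes, -0.10 for Scd1 (adjusted permutation p = 0.0504, rho = -0.109 with 0.0366) and -0.035 for Scd2 (adjusted permutation p = 0.538), and Srebf1 did not pass (0.06, adjusted permutation p = 0.30).

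The levels of 6 genes, Scd1, Fasn, Acaca, Acly, Elovl6 and Thrsp, moved together from animal to animal (the map of correlations). They were singled out after their values were seen. Their 15 pairs had r from 0.571 to 0.895 within sex and generation, with a median of 0.812. Acaca and Acly, which act one after the other, were the closest pair (r = 0.895, rho = 0.785, and 0.881 without the 2 libraries farthest from the median), followed by Fasn and Acaca (0.881, rho = 0.791, and 0.875 without 2 libraries) and by Fasn and Acly (0.880, rho = 0.833, and 0.877). The 18 pairs of these 6 with Acacb, Me1 or Srebf1 had a median of 0.045, and within them those of Srebf1 ran from 0.06 with Scd1 to 0.305 with Fasn. Scd2 lay between, with r from 0.465 (Thrsp) to 0.582 (Fasn) with the 6 genes and all 6 pairs called, so the 10 genes did not fall into 2 separate sets. Over all 45 pairs 28 were positive and 3 negative at an adjusted permutation p below 0.05 over the same relations, and 19 had r above 0.5. For comparison, 0.533% of the correlations of the 10 genes with all other genes exceeded 0.5. The 3 negative pairs were weak and all held Acacb, with Scd2 (r = -0.186, rho = -0.154), Me1 (-0.140, rho = -0.143) and Scd1 (-0.114, rho = -0.111). Without 2 libraries these were -0.198, -0.120 and -0.106.

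**Figure D5:**
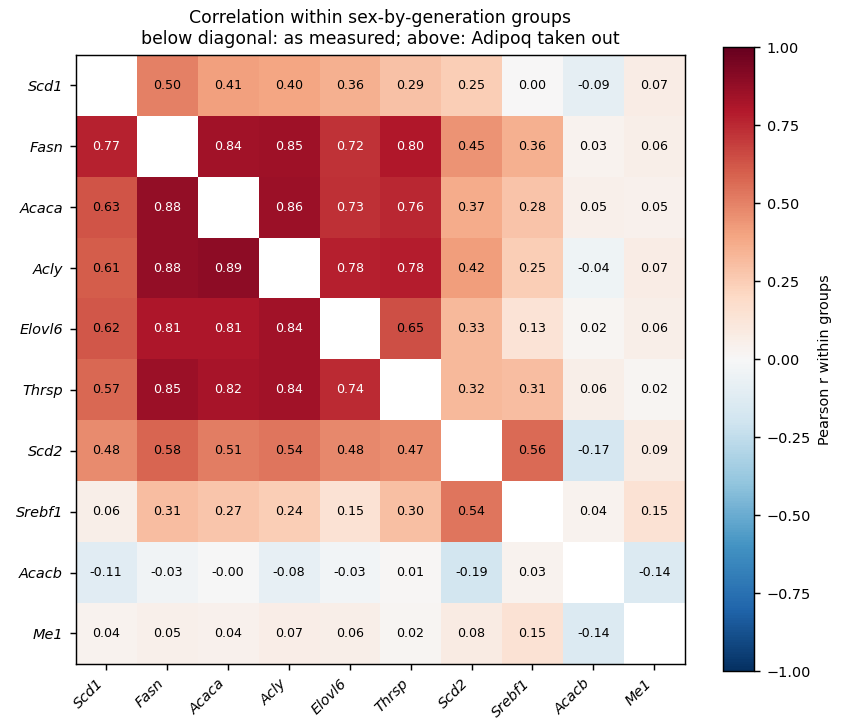
Pearson's r between the 10 genes within sex-by-generation groups over all libraries, as measured (below the diagonal) and with Adipoq also taken out (above it), on a colour scale from -1 (blue) to 1 (red). The red block of Fasn, Acaca, Acly, Elovl6 and Thrsp stays red above the diagonal, whereas the row of Scd1 pales.

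Taking Adipoq out lowered the correlations of Scd1. The r of Scd1 with Fasn went from 0.771 to 0.504 and with Thrsp from 0.571 to 0.293, whereas Acaca and Acly went from 0.895 to 0.857 and Fasn and Acly from 0.880 to 0.846. With the 3 marker scores taken out, Acaca and Acly had r = 0.767 and Fasn and Acly 0.755, while Scd1 and Thrsp had 0.03 (adjusted permutation p = 0.577). The median over the 15 pairs was 0.729 after Adipoq and 0.584 after the 3 scores. Srebf1 was closest to Scd2 among the 10 genes, with r = 0.537 (rho = 0.503, and r = 0.523 without 2 libraries), 0.563 after Adipoq and 0.575 after the 3 scores. Its r with Fasn was 0.305, 0.356 and 0.318 in the same order, and that with Scd1 was 0.06, 0.0018 and -0.15. In females alone the median r over the 45 pairs was 0.429 and in males alone 0.208, and the difference between the sexes was not tested.

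Ranking all other genes by their r with each member placed the members in different company. The 3 most similar genes to Scd1 were Plin1 (0.931), which coats fat droplets, Prkar2b (0.897), a regulatory subunit of protein kinase A, and Adipoq (0.894). For Fasn they were Slc25a1 (0.918), the mitochondrial carrier that exports citrate, then Acaca and Acly. Acaca, Elovl6 and Thrsp each had Acly and Fasn among their first 3, and Acly had Tkt (0.863), transketolase of the pentose phosphate pathway, next to them. Scd2 was closest to Insig1 (0.669), which holds SREBP precursors in the endoplasmic reticulum, and Srebf1 was closest to Scd2, with Lpcat3 (0.443), a phospholipid-remodelling enzyme, also among its first 3. Acacb was closest to Cpt1b (0.586), the muscle carnitine palmitoyltransferase that malonyl-CoA inhibits, Naca (0.574) and Ulk1 (0.569), an autophagy kinase. Me1 had no close neighbour, with Prkab2 (0.419), a subunit of AMP-activated kinase, and Pvalb (0.412), parvalbumin of fast fibres, at the top. After Adipoq was also taken out, Pnpla2 (0.585), the fat droplet lipase, came first for Acacb, and Cpt1b was at 0.582.

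Further genes around the pathway were read from 4 lists. The shares called among all genes are those given above. Of 13 regulators 7 were lower and 2 higher in males, and the largest differences were those of Mlxipl, the sugar-sensing factor ChREBP (-0.43, SE 0.02), Ppargc1b (-0.27), Nr1h3, the receptor LXR alpha (-0.23), and Pparg, the factor of fat cell differentiation (-0.15). With Adipoq 4 rose and 4 fell, and Pparg (0.35, SE 0.02) and Insig1 (0.30) had the steepest slopes, while Insig2 fell slightly (-0.04). The median log2 sex difference of this list was -0.06 and its median slope -0.0012.

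Of 11 genes listed under acetyl-CoA and NADPH supply, a list that also holds Mid1ip1 and Mlycd, 7 were lower and 3 higher in males. The largest differences were those of Tkt (-0.62, SE 0.06), Slc25a1 (-0.57), Idh1, cytosolic isocitrate dehydrogenase (-0.44), and G6pdx, glucose-6-phosphate dehydrogenase (-0.34). With Adipoq 7 rose and 1 fell, and Slc25a1 (0.71, SE 0.03), G6pdx (0.43) and Tkt (0.40) had the steepest slopes. The medians were -0.05 for sex and 0.05 for the slope.

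Of 15 genes of elongation and desaturation 14 were tested, and 6 were lower and 3 higher in males. Hacd1, a dehydratase of muscle (-0.33, SE 0.02), Hsd17b12, the ketoreductase of elongation (-0.30), Fads1, a desaturase of polyunsaturated fatty acids (-0.23), and Elovl7 (-0.21) were the largest that passed. With Adipoq 9 rose and 2 fell, with Scd3 (0.95, SE 0.10), Elovl4 (0.78) and Hacd2 (0.46) in front. Scd3 had a median of only 0.0281 CPM, so its slope rests on few reads. The counts are estimated expected counts (described below), and how many reads of the similar Scd genes were assigned to Scd3 was not tested. The medians were -0.09 for sex and 0.09 for the slope. Of 13 genes of triglyceride synthesis 4 were lower and 2 higher in males, with Mogat1 (-0.45, SE 0.13), Agpat2 (-0.41), Dgat1 (-0.20) and Lpin2 (0.20) the largest. With Adipoq 5 rose and 2 fell, led by Mogat1 (0.89, SE 0.05), Agpat2 (0.56) and Mogat2 (0.30). The medians were -0.016 for sex and 0.0076 for the slope, close to those of all genes.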

How the data were processed

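Per the methods of the study, the authors pooled both reads of a pair and mapped each on its own to the combined transcriptome of the founder strains, then estimated an expected count per gene with EMASE in GBRS, on GRCm38. They left out transcripts that had under 1 read in 50% or more of the samples. Versions are not given in the sources used here. The deposited expected counts were unnormalised, and 68.6% were whole to 6 decimals. The deposited score per gene is a variance-stabilising transform made by the authors with DESeq2, close to a log2 scale. The methods also describe removing batch effects by regression on batch as a random effect (lme4), with sex and generation kept, and whether the deposited scores carry that step is not given. The correlations and variance shares rest on these scores.

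Counts were rounded and scaled by TMM (factors 0.871 to 1.29). A minimum count of 10 in edgeR's filter kept 18823 of 20612 genes and removed 1789. Members and gene lists were chosen with earlier results of these data known. Groups were the sex and the number in the sample title, read as the generation, and each library is 1 animal. The quasi-likelihood test of edgeR 4.0.16 (R 4.3.3) was fitted to all genes, with p-values adjusted by Benjamini-Hochberg and called below 0.05: sex with generation as covariate, generation with sex, their interaction, the slope on log2 CPM of Adipoq within sex and generation, and the sex-by-Adipoq interaction. Alternatives used limma 3.58.1 on the deposited score, DESeq2 1.42.0, other scalings, filters and covariates. The covariates included white fat, brown fat and Schwann cell scores, each the level of a marker list. Correlations used deposited scores less group means, with 2-sided p-values from 100000 permutations within groups. Where 2 libraries were left out, they were those farthest from the median of 1 gene of the pair. That gene was the one named first in the opening list of the 10 genes, and in relations with a marker the member. The script was tested on simulated data with known answers.

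Named genes were the 10 genes, Adipoq, the first gene of each cell type list, the largest called sex differences (up to 4) and slopes (up to 3) of each pathway list and the 3 genes most similar to each of the 10. Other markers were named after their values were seen. Some genes that this rule named are not reported here. The table's columns DO048 and DO308 were swapped in order against the sample list, as were DO309 and DO310, and each was used under its own name.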

Additional observations from a re-analysis of the deposited data

Results flagged for a closer look

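The slope on Adipoq differed between females and males by the sex-by-Adipoq interaction in edgeR for 7 of the 10 genes, each with the lower slope in males. The difference, male minus female, was -0.50 for Elovl6, -0.48 for Thrsp, -0.42 for Fasn, -0.31 for Acly, -0.28 for Acaca, -0.15 for Scd2 and -0.15 for Srebf1 (log2 change for each doubling of Adipoq, adjusted p from 1.13e-08 to 0.0338). With brown fat and Schwann cell scores added, the differences were all still below 0, from -0.19 for Elovl6 to -0.08 for Fasn, and 0 of the 7 were called (6 had an unadjusted p under 0.05).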

How the results depend on the processing

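No paired analysis was possible because the numbers in the labels name single animals, which no groups share. For sex, the number of the 10 genes called was 6 to 9 under every alternative, against 8. Values that changed sign were those of Scd1 with Adipoq (0.24), the white fat score (0.42) or all 3 scores (0.40) added, of Scd2 within generation 17 (-0.052) and block 4 (-0.066), and of Acacb, whose main value was 0.0018: -0.028 by total count alone, -0.00017 by DESeq2 size factors, -0.00018 under a stricter filter, -0.00017 by DESeq2, -0.0068, -0.0081 and -0.012 with those covariates, -0.042 and -0.033 within generations 17 and 19, and -0.015 and -0.023 within blocks 1 and 3. Fits within a generation or a block held fewer animals and called fewer genes. The shares of all genes were 22.7%, 23.4%, 20.6%, 24.8% and 25.3% within generations 17 to 23. Within blocks 1 to 5 they were 19.7%, 22.7%, 24.4%, 28.6% and 23.2%, against 55% in the main fit. For generation, 1 gene was called with Adipoq, 1 with the white fat score and 0 with all 3 scores, against 2, and of all genes 6.88%, 6.85% and 7.14%, against 7.56%. For the sex-by-generation interaction limma called 0 genes (870 at an unadjusted p under 0.05) and edgeR 0.531%. For the slope on Adipoq, 6 (within block 5, without Scd2) to 8 of the 10 genes were called, against 7, and the 8 included Srebf1 in females and on the white fat score. Of all genes 16.9% were called with brown fat and Schwann cell scores, 13.9% in males only, and 8.16%, 14.8%, 8.81%, 9.28% and 9.33% within blocks 1 to 5, against 36.1%. Slopes that changed sign were all uncalled: Acacb 0.0065 by total count alone, Srebf1 -0.022 with both scores, -0.054 in males, and -0.071 and -0.038 within blocks 4 and 5, and Me1 -0.00068 without a filter, -0.00075 with block, -0.0041 on the white fat score, -0.0084 in males, -0.00073 without the 5 libraries, and -0.025, -0.0016 and -0.032 within blocks 3 to 5. For the sex-by-Adipoq interaction, 0 of the 10 genes and 0.112% of all genes were called with brown fat and Schwann cell scores, 0 and 0.122% with the square of Adipoq, and 6 and 2.81% by limma, which lost Scd2 (adjusted p = 0.0712), against 7 and 4.94%. Within blocks 1 to 4 it called 6, 0, 0 and 0 of the 10 genes and 0.972%, 0.00531%, 0.0319% and 0.0159% of all, and within block 5 it called 1 of the 10 and 3.93% of all. Signs changed for Scd1 (0.052 with both scores, 0.0012 with the square, 0.048 and 0.044 within blocks 3 and 5), Acacb (0.021 and 0.013 within blocks 2 and 5), Srebf1 (0.012 within block 3) and Me1 (0.031 and 0.12 within blocks 3 and 5). Pairs with r above 0.5 numbered 12 after Adipoq and 10 after the 3 scores, against 19. Among pairs of the 10 genes and their relations with Adipoq that were called before or after the change, signs changed for Scd1 and Srebf1 (-0.15 after the 3 scores), Acacb and Me1 (0.00099 within block 4), Srebf1 and Elovl6 (-0.049 in males), Srebf1 and Me1 (-0.068 within block 1), and for Adipoq after the 3 scores, of which it is a part, with Scd2 (-0.0050), Fasn (-0.15), Acaca (-0.15), Srebf1 (-0.15), Acly (-0.12) and Thrsp (-0.17). Called relations with Ucp1 changed sign for Scd1 (-0.10) and Scd2 (-0.035) after the 3 scores, and weak pairs that were not called changed sign in further settings. The cause of these changes was not tested. Marker score fits, fits within generations and blocks, the square of Adipoq and the ratios without 1 library were chosen after seeing the data.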
